A study of Mus musculus with 6 samples.

Results

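The stroma of the fetal mouse thymus was compared between Jmjd6-/- and wild-type (WT) embryos in organ culture without stimulation. Genes were kept when they reached at least 5 FPKM (fragment counts divided by transcript length and by library size) in either unstimulated library and did not lie on chromosome X or Y. This rule kept 9285 of the 22513 genes listed, of which 8806 reached 5 FPKM in both libraries, 267 in WT alone and 212 in Jmjd6-/- alone. At the edge of the rule, Donson was kept at 4.86 FPKM in WT and 5.01 in Jmjd6-/- stroma, and Abcb6 was left out at 4.99982 and 4.32 FPKM. Lobes were taken from E15.5 embryos on a C57BL/6 background and treated for 4 days with 2-deoxyguanosine (2-DG), which kills dividing blood cells and leaves the stroma. The unstimulated lobes of both genotypes differed in genotype alone by their labels, and Jmjd6-/- embryos came from crosses of heterozygous parents, so the gene was missing from every cell of the lobe. The other lobes of the study received RANKL, the cytokine that matures medullary epithelium, and gave 2 WT and 2 Jmjd6-/- libraries.

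Jmjd6 is a nuclear dioxygenase with a JmjC domain that hydroxylates lysines of splicing regulators. The stroma it was deleted from is a mixture in which epithelial cells of the cortex (cTECs) and medulla (mTECs) lie among mesenchyme, vessels and macrophages. Fetal mesenchyme supplies collagens and growth factors to the epithelium. Type I interferons act through the receptor chains Ifnar1 and Ifnar2 and the kinases Jak1 and Tyk2, and a factor that contains Stat2 and Irf9 then binds the interferon-stimulated response element in the promoters of antiviral genes. Keratins are the intermediate filaments of epithelia, and different pairs mark simple, basal, stratified and wounded epithelium.

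With 1 library per genotype, no test of the unstimulated difference was possible and every value of it is a description. The table holds no read counts. The spacing of the smallest FPKM values gave an approximate depth of 31500000 fragments for the WT and 15600000 for the Jmjd6-/- library, and the part of this gap in the differences was not tested. The libraries of both genotypes also differed in genes of the Y chromosome, which in mice are transcribed in males. Summed over Kdm5d, Eif2s3y, Uty and Ddx3y, the level without stimulation was 78.3 FPKM for WT and 0.121 FPKM for Jmjd6-/- stroma, and Xist, which is transcribed from the inactive X, was at 36.8 and 81.5 FPKM. The sex of the embryos and the genotype therefore cannot be told apart in the unstimulated pair. Under RANKL the same Y-linked sum was 48.9 and 41.0 FPKM in the WT and 73.7 and 16.4 FPKM in the Jmjd6-/- libraries, so Jmjd6-/- replicate 1 lay above both WT libraries and replicate 2 below both. Values with each of these replicates alone are given with the RANKL comparison.

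Jmjd6 itself served as the check of the labels. On chromosome 11 (mm10, chr11:116837432-116843449), Jmjd6 was at 26.3 FPKM in the WT and 1.32 FPKM in the Jmjd6-/- library without stimulation, with 25.9 and 32.5 FPKM in WT and 1.96 and 1.78 FPKM in Jmjd6-/- libraries under RANKL. All Jmjd6-/- libraries were thus far below all WT libraries. The adjacent gene Mettl23, a methyltransferase-like gene, was at 28.7 FPKM in WT and listed at 0 in Jmjd6-/- stroma. With the 3 fragments that a 0 allows, Mettl23 was at least 168-fold lower, a limit that covers counting error only. The further neighbour Mfsd11 was at 14.8 and 14.7 FPKM and the splicing factor gene Srsf2 at 168 and 140 FPKM. Mxra7, a matrix-remodelling associated gene also beside Jmjd6, was at 9.61 FPKM in WT and 4.15 FPKM in Jmjd6-/- stroma.

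The unstimulated libraries were close to each other over most genes. The median log2 ratio of Jmjd6-/- over WT, with 0.1 added to each FPKM, was 0.00, the central 50% of genes lay between -0.12 and 0.11, and 92.7% lay within 0.5. The median absolute difference of 0.12 between genotypes lay between those of the RANKL replicates, which were 0.06 for the Jmjd6-/- pair and 0.25 for the WT pair. At a difference of 2-fold or more, 128 genes (1.38% of those kept) were lower and 91 genes (0.980%) were higher in Jmjd6-/- stroma. Among the genes at 5 FPKM or more in both libraries, 55 (0.625%) were lower and 39 (0.443%) higher by 2-fold, so most 2-fold differences lay in genes that reached 5 FPKM in 1 genotype only. By the estimated depth, the 128 lower genes had a median of about 152 fragments in the Jmjd6-/- library and the 91 higher genes about 224 fragments in the WT library, with a minimum of about 5. In the plot of both libraries, the lower genes carry many interferon-response and mesenchymal genes and the higher genes many keratins.

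**Figure D1:**
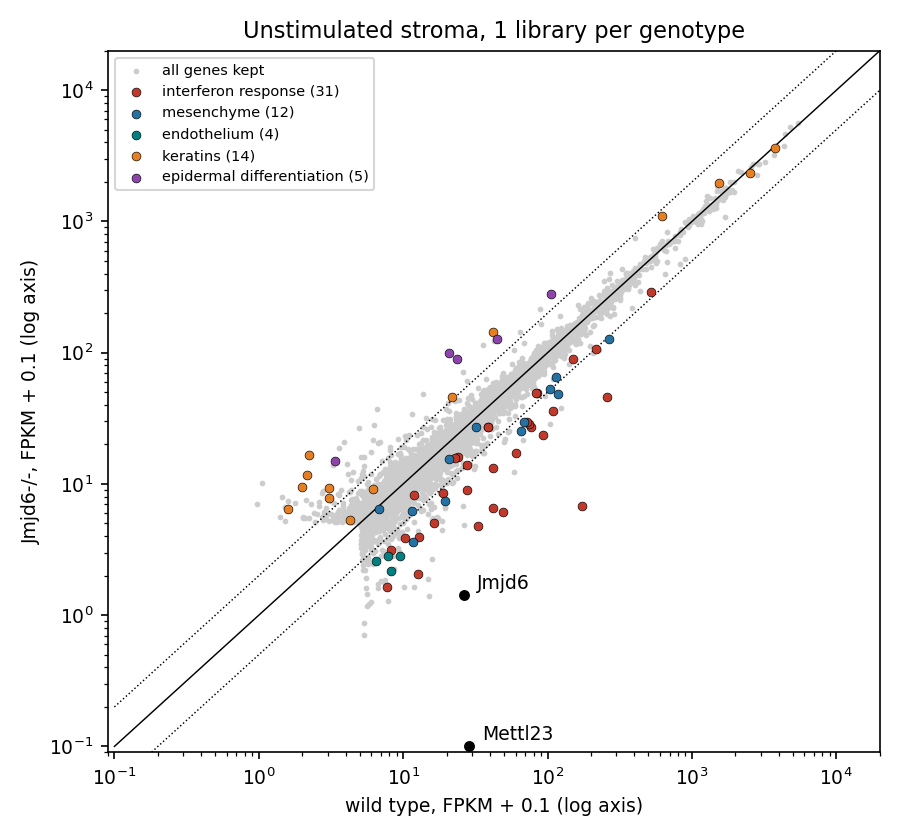
FPKM + 0.1 of 9285 genes in unstimulated WT (x axis) and Jmjd6-/- stroma (y axis), both log axes, 1 library each, with equality as a solid line and 2-fold differences as dotted lines. Coloured points are members of 5 gene lists with the number kept in brackets: the interferon list lies below equality, and 12 of 14 keratins lie above it.

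Markers of thymic epithelium were present at similar levels in both libraries. Foxn1, the transcription factor that defines thymic epithelium, was at 89.5 FPKM in WT and 94.0 FPKM in Jmjd6-/- stroma, and Epcam, an adhesion molecule of epithelium, at 168 and 156 FPKM. The 13 kept markers of cTECs had a median log2 ratio of -0.09, none past 2-fold, and ranged from -0.58 to 0.45. The lowest of them was Psmb11, the catalytic subunit of the cortical thymoproteasome, at 440 and 294 FPKM, whereas the RANKL libraries of both genotypes overlapped for this gene (243 and 300 FPKM in WT, 254 and 266 FPKM in Jmjd6-/-). Of the 9 kept mTEC markers, Krt14, a basal keratin, was past 2-fold (2.98 and 7.67 FPKM), and the median was -0.09. Krt14 reached 5 FPKM in Jmjd6-/- stroma alone, so its higher value was fixed by the rule. Of the 7 mTEC markers at 5 FPKM or more in both libraries, 0 were past 2-fold, with a median of -0.10. Aire, which RANKL induces, was at 0.142 and 0.473 FPKM, below the rule in both libraries. The 10 kept macrophage markers had a median of -0.04 with none past 2-fold. No member of the T cell, B cell, mast cell, skeletal muscle or thyroid list was kept, and the 15 T cell markers summed to 1.61 FPKM in WT and 2.51 FPKM in Jmjd6-/- stroma, with Cd3d and Cd3e listed at 0 in both.

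Of all lists, the interferon response held the most genes lower by 2-fold. Of 31 kept members of the list, 21 were at least 2-fold lower, 0 were 2-fold higher and all 31 were below 0, with a median log2 ratio of -1.41 against 0.00 over all genes kept. Of these, 7 reached 5 FPKM in WT alone, and among the 24 at 5 FPKM or more in both libraries 14 were 2-fold lower, with a median of -1.21. Their summed level over all 31 was 2412 FPKM in WT and 975 FPKM in Jmjd6-/- stroma. The lowest was Ifi27l2a, an interferon-inducible gene, at 174 FPKM in WT and 6.75 FPKM in Jmjd6-/- stroma, a log2 ratio of -4.67. Irf7, the transcription factor that amplifies type I interferon, was at 41.9 and 6.41 FPKM, and Isg15, a ubiquitin-like protein joined to other proteins during infection, at 260 and 45.5 FPKM. The enzyme Usp18, which removes Isg15 from its targets, was at 42.1 and 13.1 FPKM. These 4 genes were named with their ratios known, and 10 of the 31 members lay within 2-fold.

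Antiviral effectors on the same list differed to unequal degrees. Oas1a, an oligoadenylate synthetase that activates RNA degradation, was at 12.6 FPKM in WT and 1.96 FPKM in Jmjd6-/- stroma, and Igtp, a GTPase of the vacuole-attacking family, at 33.1 and 4.65 FPKM. The RNA-binding Ifit3 was at 60.1 and 17.1 FPKM and its relative Ifit1 at 74.5 and 28.5 FPKM. Reads of Oas1a may be shared with its close copies, which lay in the same direction, Oas1g at 5.27 and 0.604 FPKM and Oas1b at 5.23 and 0.772 FPKM. Bst2, which holds budding viruses at the cell surface, was at 108 and 35.8 FPKM. The 10 members within 2-fold ran from -0.98 for Stat2 to -0.49 for Trim25, a ubiquitin ligase of the RNA-sensing pathway. They included the RNA sensors Ifih1 (22.7 and 15.7 FPKM) and Ddx58 (38.7 and 27.0 FPKM). Of the interferon-activated factor, Irf9 was past 2-fold at 71.7 and 29.7 FPKM and Stat2 was at 27.6 and 13.9 FPKM.

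The promoters of the 4 genes with the largest difference among list members past 2-fold that hold the response-element core are shown. They were chosen for holding it, and not all members do. Sequences are from RefSeq on GRCm38.p6, from 250 bases before to 50 bases after the annotated start, on the strand of the gene, with matches to the core, TTTC then any 2 bases and TTTC again, on either strand in capitals. Overlapping matches are merged.
Igtp (chr11:58199306-58199605, plus strand): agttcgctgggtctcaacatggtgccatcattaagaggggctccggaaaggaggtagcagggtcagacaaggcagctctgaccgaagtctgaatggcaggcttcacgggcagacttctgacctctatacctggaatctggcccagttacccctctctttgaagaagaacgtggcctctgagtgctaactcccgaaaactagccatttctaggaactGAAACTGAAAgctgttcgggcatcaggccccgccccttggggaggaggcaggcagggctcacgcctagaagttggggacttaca
Oas1a (chr5:120907476-120907775, minus strand): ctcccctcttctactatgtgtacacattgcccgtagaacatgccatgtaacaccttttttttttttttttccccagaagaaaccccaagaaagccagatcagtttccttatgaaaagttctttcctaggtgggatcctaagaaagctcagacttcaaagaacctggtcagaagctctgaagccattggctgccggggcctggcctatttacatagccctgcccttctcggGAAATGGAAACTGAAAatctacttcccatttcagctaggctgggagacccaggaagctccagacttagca
Isg15 (chr4:156200769-156201068, minus strand): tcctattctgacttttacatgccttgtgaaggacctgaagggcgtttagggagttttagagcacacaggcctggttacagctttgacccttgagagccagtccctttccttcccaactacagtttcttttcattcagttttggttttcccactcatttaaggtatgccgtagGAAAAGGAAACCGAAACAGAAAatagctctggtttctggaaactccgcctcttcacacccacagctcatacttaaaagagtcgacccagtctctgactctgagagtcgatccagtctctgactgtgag
Ifit3 (chr19:34583279-34583578, plus strand): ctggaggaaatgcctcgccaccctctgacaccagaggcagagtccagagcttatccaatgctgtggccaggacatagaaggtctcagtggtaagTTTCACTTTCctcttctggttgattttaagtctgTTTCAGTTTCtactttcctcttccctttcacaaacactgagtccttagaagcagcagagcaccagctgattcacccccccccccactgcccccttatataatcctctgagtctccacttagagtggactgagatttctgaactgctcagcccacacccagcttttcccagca

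Across the list, 13 of the 23 members with a promoter entry (56.5%) held the core, against 264 of 6938 genes kept with an entry (3.81%) and 3.44% of all 32851 promoters of this length. Igtp held 1 match, Oas1a 2, Isg15 3 and Ifit3 2. Members with a match had a median log2 ratio of -1.39 and members without one -1.14. The core was about as frequent among members past 2-fold (8 of 14) as among members within 2-fold (5 of 9). Outside the list, 14 of the 66 genes lower by 2-fold with an entry (21.2%) held it, among them Ddx60, Slfn5, Slfn8, Trim30a and Oas1g, all of which are known to respond to interferon. The 14 also included Igf2 of the growth factor list, Mfap2 of the matrix glycoproteins and Gfra4, a receptor for persephin. Of the 60 genes higher by 2-fold with an entry, 2 held it (3.33%). A match is a description of the letters in this window and not of binding.

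A separate list held ligands, receptors and signalling genes of interferon. Irf7, Irf9 and Stat2, which were lower in Jmjd6-/- stroma as given above, are not on it. For this list, chosen after the values were seen, 11 of 24 members were kept, none past 2-fold, with a median log2 ratio of -0.06. The receptor chains Ifnar1 and Ifnar2 were at 17.1 and 30.9 FPKM in WT and 18.4 and 25.6 FPKM in Jmjd6-/- stroma. The kinases Jak1 and Tyk2 were at 53.6 and 9.77 FPKM in WT and 61.4 and 8.89 FPKM in Jmjd6-/- stroma. The ligands Ifna1, Ifnb1, Ifne, Ifnk, Ifng, Ifnl2 and Ifnl3 were listed at 0 in both unstimulated libraries, so no direction can be read for them. Irf1, which interferons also induce, was at 135 and 114 FPKM, and Irf3, which is activated by viral sensors without induction, at 33.7 and 26.1 FPKM.

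Classical antigen presentation lay between. Of 14 kept genes for MHC class I and the immunoproteasome, 2 were 2-fold lower and 14 of 14 were below 0, with a median of -0.60. Of the 2, H2-Q7 reached 5 FPKM in WT alone. Among the 13 at 5 FPKM or more in both libraries, 1 was 2-fold lower, with a median of -0.55. H2-Q7, a non-classical class I gene, was at 15.1 FPKM in WT and 1.31 FPKM in Jmjd6-/- stroma, with 100 and 127 FPKM in WT and 27.8 and 19.5 FPKM in Jmjd6-/- libraries under RANKL. Genes of the H2-Q cluster are near-identical and their values are uncertain. Psmb8, an immunoproteasome subunit, was at 15.7 and 5.30 FPKM. The 9 kept MHC class II genes had a median of -0.05 and none was past 2-fold. Of 15 kept chemokine genes, 4 were lower and 1 higher, with a median of -0.38. Of the 4 lower, 3 reached 5 FPKM in WT alone, and the 1 higher in Jmjd6-/- alone, so their direction was fixed by the rule. Among the 9 at 5 FPKM or more in both libraries, 1 was lower, with a median of -0.29. Cxcl13, which attracts B cells, was at 26.5 and 4.75 FPKM, and Ppbp, a platelet chemokine, was the gene with the highest ratio of all, at 0.959 and 10.03 FPKM. The 9 kept complement genes had a median of -0.21. C1ra, a protease of the first component, was at 6.09 and 2.36 FPKM and its inhibitor Serping1 at 9.33 and 3.74 FPKM. Both reached 5 FPKM in WT alone, so a lower value in Jmjd6-/- stroma was fixed by the rule. Of the 6 complement genes at 5 FPKM or more in both libraries, 0 were 2-fold lower, with a median of -0.14. Clu, a secreted chaperone that also blocks complement, was past 2-fold higher at 89.1 and 215 FPKM.

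Mesenchymal genes were lower in the Jmjd6-/- library. Of 12 kept markers, 6 were at least 2-fold lower and all 12 were below 0, with a median log2 ratio of -1.03, and their summed level was 838 FPKM in WT and 414 FPKM in Jmjd6-/- stroma. Of the 6, Dpt reached 5 FPKM in WT alone, so its lower value was fixed by the rule. Among the 11 at 5 FPKM or more in both libraries, 5 were 2-fold lower, with a median of -0.99. Dpt, a dermatopontin that binds decorin, was at 11.6 and 3.54 FPKM. Lum, a proteoglycan that spaces collagen fibrils, was at 65.8 and 25.4 FPKM and its relative Dcn at 118 and 48.6 FPKM. Receptors for platelet-derived growth factor, which define these cells, were at 11.4 and 6.13 FPKM (Pdgfra) and 20.5 and 15.4 FPKM (Pdgfrb). In whole stroma, fewer cells of a type and less RNA per cell cannot be told apart.

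Collagens differed to unequal degrees. Of 16 kept collagens, 4 were 2-fold lower and none higher, with a median of -0.48. The fibril-forming Col1a1 was at 68.1 and 29.4 FPKM and Col3a1 at 266 and 127 FPKM. The other two past 2-fold were Col27a1, also of the fibrillar group, at 18.3 and 5.16 FPKM, and Col15a1, of the basement membrane zone, at 11.8 and 5.06 FPKM. Under RANKL, Col3a1 was at 245 and 235 FPKM in WT and 125 and 115 FPKM in Jmjd6-/- libraries, so the genotypes did not overlap. The type IV collagens of basement membranes were near equality, Col4a1 at 113 and 118 FPKM and Col4a2 at 116 and 122 FPKM, and the 13 kept genes of the basement membrane list had a median of 0.06 with none past 2-fold. Of 22 kept proteoglycans and matrix glycoproteins, 6 were lower and 1 higher with a median of -0.77, and Ogn, a leucine-rich proteoglycan, was at 7.73 and 1.18 FPKM. Ogn reached 5 FPKM in WT alone, and among the 20 that reached it in both libraries 5 were lower and 1 higher. Of 20 kept genes that modify collagen, Loxl1, a cross-linking oxidase, and Pcolce, an enhancer of procollagen cleavage, were past 2-fold at 5.58 and 2.47 FPKM and at 29.1 and 14.1 FPKM. Loxl1 reached 5 FPKM in WT alone, so its lower value was fixed by the rule. Serpinh1, the chaperone of procollagen, was at 198 and 145 FPKM.

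Markers of endothelium were few and low. Of 16 genes, 4 were kept all 4 through the WT library alone, so that a lower value in Jmjd6-/- stroma is fixed by the rule. Their log2 ratios had a median of -1.62, a description only. Cdh5, the cadherin of vessel junctions, was at 9.48 and 2.72 FPKM, Pecam1 at 7.71 and 2.72 FPKM and Egfl7, a matrix protein that vessels secrete, at 8.17 and 2.06 FPKM. In the RANKL libraries, Cdh5 was at 3.78 and 4.20 FPKM in WT and 1.34 and 1.16 FPKM in Jmjd6-/-. Of the 12 markers under 5 FPKM, 7 were lower and 1 was higher by 2-fold, with a median of -1.17, where 3.66% and 3.58% of all genes under 5 FPKM were. Among genes that reached 1 but not 5 FPKM, 5 of 8 markers were lower, against 4.87% of all such genes. Kdr, the main receptor for vascular endothelial growth factor, was at 2.92 and 1.05 FPKM, and the exception Prox1, which marks lymphatic vessels and also other cell types, at 0.328 and 1.58 FPKM while Lyve1 of lymphatics was at 0.0705 and 0.0457 FPKM. Smooth muscle markers did not share this direction, with Acta2 past 2-fold in the other, at 5.24 and 11.3 FPKM, and a median of 0.21 over 6 kept genes.

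A few genes of growth factor pathways were lower by 2-fold. Of 16 kept genes of the fibroblast and insulin-like growth factor pathways, 3 were lower by 2-fold and none higher, with a median of -0.45. Of the 3, Fgf10 reached 5 FPKM in WT alone, so its lower value was fixed by the rule. Among the 13 at 5 FPKM or more in both libraries, 2 were lower, with a median of -0.34. Fgf10, a mesenchymal signal to thymic epithelium, was at 5.63 and 2.64 FPKM, and its epithelial receptor Fgfr2 was at 56.2 and 68.8 FPKM. Igf2, a fetal growth factor, was at 36.1 and 17.0 FPKM and H19, the noncoding RNA from the same imprinted region, at 67.1 and 21.4 FPKM. Genes of mitosis were below 0 in 20 of 20 kept members, with none past 2-fold and a median of -0.38, and those of DNA replication in 19 of 19 with a median of -0.22. In each of these lists 5 members reached 5 FPKM in WT alone. Those at 5 FPKM or more in both libraries had medians of -0.38 and -0.16. Ube2c, which drives exit from mitosis, was at 18.5 and 9.84 FPKM. For the Wnt, Notch and BMP and TGF-beta pathways, medians were 0.11, 0.07 and -0.01. The Wnt inhibitor Sfrp2 was past 2-fold at 8.19 and 3.73 FPKM, also kept through WT alone.

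**Figure D2:**
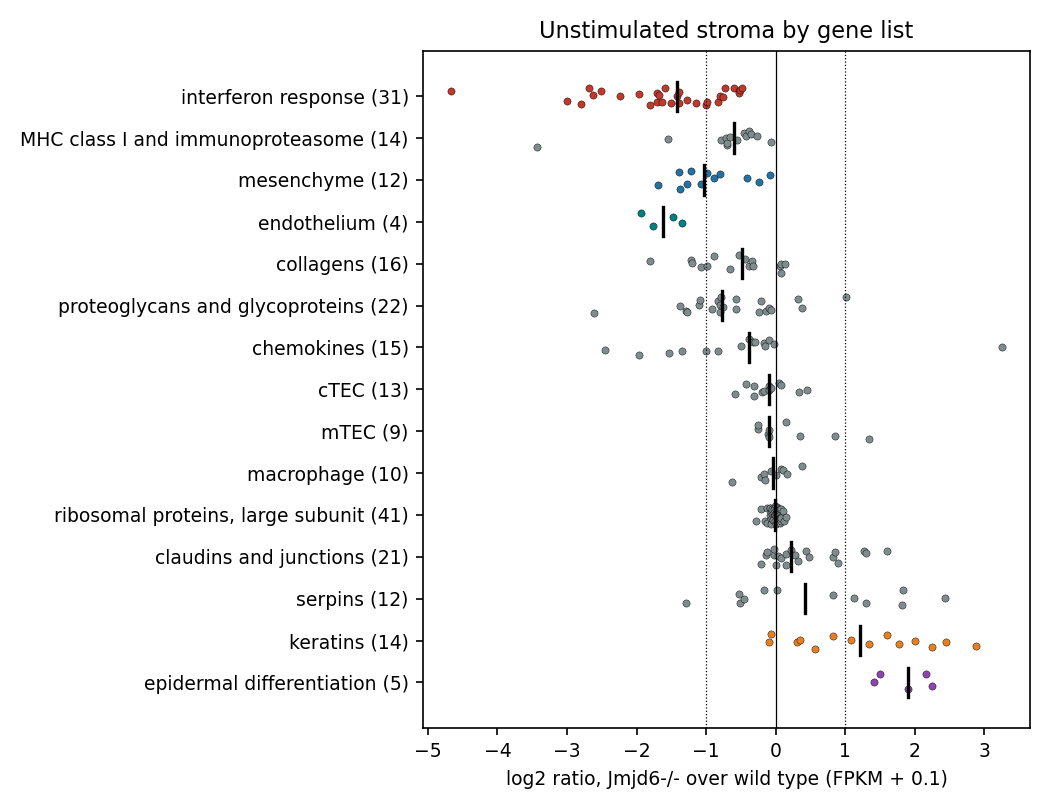
Log2 ratio of Jmjd6-/- over WT in unstimulated stroma (x axis) for each kept member of 15 gene lists (rows, number kept in brackets), with a bar at the list median and dotted lines at 2-fold. Medians run from -1.62 for endothelium, whose 4 genes reached 5 FPKM in WT alone, to 1.91 for epidermal differentiation, and the cTEC, mTEC, macrophage and ribosomal lists lie near 0.

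Of all lists, keratins held the most genes higher by 2-fold. Of 14 kept keratins, 8 were at least 2-fold higher, none was 2-fold lower and 12 were above 0, with a median log2 ratio of 1.21. Of the 8, 6 passed the rule through the Jmjd6-/- library alone and had to differ, and among the 7 keratins at 5 FPKM or more in both libraries 2 were higher, with a median of 0.57. Krt6b and Krt16, keratins of wounded and stratified epithelium, had the highest ratios of the family. Krt6b was at 2.14 FPKM in WT and 16.4 FPKM in Jmjd6-/- stroma and Krt16 at 2.05 and 11.7 FPKM. Next came Krt23 at 1.89 and 9.36 FPKM, Krt80 at 1.49 and 6.30 FPKM and Krt6a, also of wounds, at 41.9 and 143 FPKM. Reads of Krt6a and Krt6b, which are near-identical, and of Krt16 and Krt17 may be split between them. The basal keratin Krt15 was at 2.96 and 9.18 FPKM.

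Abundant keratins of thymic epithelium lay within 2-fold, Krt8 and Krt18 slightly lower and Krt5 and Krt17 higher in Jmjd6-/- stroma. Krt8 and Krt18, the pair of simple epithelium, were at 2520 and 3767 FPKM in WT and 2359 and 3602 FPKM in Jmjd6-/- stroma. Krt5, a marker of the medulla, was at 1548 and 1977 FPKM, and Krt17 at 619 and 1099 FPKM. The summed level of the kept keratins was therefore 8541 FPKM in WT and 9301 FPKM in Jmjd6-/- stroma. Of the 29 keratins under 5 FPKM, 6 were 2-fold higher and none lower, with a median of 0.20. Over all genes under 5 FPKM, 3.58% were 2-fold higher and 3.66% lower. Among the 6 was Krt13 of stratified mucosa at 0.355 and 2.67 FPKM.

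Genes of epidermal differentiation went with the keratins. Of 40 in the table, 5 were kept and all 5 were past 2-fold higher, with a median of 1.91. Calml3 passed the rule through the Jmjd6-/- library alone, and the other 4 reached 5 FPKM in both. Sprr1a, a cross-linked precursor of the cornified envelope, was at 20.8 FPKM in WT and 99.5 FPKM in Jmjd6-/- stroma. The secreted epidermal proteins Krtdap, Sbsn and Dmkn were at 105, 44.6 and 23.7 FPKM in WT and 281, 127 and 89.1 FPKM in Jmjd6-/- stroma. Calml3, a calmodulin-like protein of epithelium, was at 3.25 and 14.9 FPKM. Of the 36 entries under 5 FPKM, 21 were higher and none lower by 2-fold, where 3.58% and 3.66% of all genes under 5 FPKM were. Among those that reached 1 FPKM, 10 of 13 were higher, against 5.38% of all genes from 1 to under 5 FPKM. The higher entries included the envelope proteins Ivl at 0.392 and 1.66 FPKM and Lor at 0.383 and 1.12 FPKM.

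Epithelial protease inhibitors and junction genes were higher in part. Of 12 kept serpins, 5 were higher and 1 lower, with a median of 0.42. The 5 higher were Serpina3i and 4 genes of the epithelial clade B cluster, with Serpinb3a at 4.83 and 26.5 FPKM, Serpinb7 at 2.03 and 7.51 FPKM, Serpinb2 at 6.05 and 21.7 FPKM and Serpinb5 at 4.26 and 10.6 FPKM. Of these 5, 4 reached 5 FPKM in Jmjd6-/- stroma alone, and the 6 serpins at 5 FPKM or more in both libraries had a median of -0.07. Reads of Serpinb3a may be shared with close copies. Of 21 kept claudins and junction genes, 3 were higher, with Cldn1 of the skin barrier at 2.21 and 6.90 FPKM and Cldn23 at 3.07 and 7.56 FPKM, all 3 through the Jmjd6-/- library alone, and the median was 0.22. Desmosomal genes within 2-fold included Dsp at 268 and 362 FPKM and Perp, which is also a target of p53, at 402 and 751 FPKM. Asprv1, a protease of stratified skin that was among the 10 highest genes, was at 6.49 and 37.2 FPKM.

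Markers of some other tissues differed as single genes. Pth, the hormone of the parathyroid gland that lies beside the thymus, was at 58.8 FPKM in WT and 12.2 FPKM in Jmjd6-/- stroma, and Chga of its secretory granules at 30.7 and 13.0 FPKM. The RANKL libraries held less of a difference, Pth at 33.8 and 27.9 FPKM in WT and 17.9 and 20.3 FPKM in Jmjd6-/-. Of 11 neutrophil genes, Ltf and S100a9 were kept and higher, at 0.867 and 6.996 FPKM and at 1.34 and 7.87 FPKM, whereas S100a8 was at 0.586 and 0.268 FPKM and the granule genes Mpo, Elane and Ngp were listed at 0 in both. Ltf and S100a9 both reached 5 FPKM in Jmjd6-/- stroma alone, so a higher value there was fixed by the rule. Epithelial cells also make Ltf and S100a9. Skint8, of the family expressed by skin and thymic epithelium, was at 5.22 and 15.8 FPKM. Stmn2, a neuronal marker, was at 13.6 and 48.3 FPKM, and Mal, a gene of myelinating glia and of apical epithelial membranes, at 2.65 and 8.44 FPKM.

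Housekeeping and splicing genes had list medians between -0.17 and 0.02. The 41 and 32 kept ribosomal protein genes of the large and small subunit had medians of -0.00 and -0.04, respiratory complex I 0.01 over 35 genes, the proteasome -0.12 over 31 and cholesterol synthesis 0.02 over 19, with none past 2-fold. Of the proteasome genes, 29 were below 0 and 2 above. Among splicing factor families, from which substrates of Jmjd6 are known, 18 SR proteins had a median of -0.17, 13 below 0 and 5 above. The 23 hnRNPs had a median of -0.05 and the 19 U2AF and LUC7-like partners -0.06. Again none of these genes was past 2-fold. The largest difference in the last list was for Clk2, a kinase of SR proteins, at 28.8 and 18.4 FPKM. Of 22 kept JmjC oxygenases, Jmjd6 itself was the 1 past 2-fold. Stress programs were near equality in the unfolded protein response (0.00 over 18 genes) and heat shock (-0.03 over 20), with the small chaperone Hspb1 past 2-fold at 64.0 and 143 FPKM. The immediate early genes Nr4a1 and Klf4 were past 2-fold in opposite directions, at 7.13 and 2.98 FPKM and at 5.19 and 12.4 FPKM. Of the 47 lists with at least 5 kept members, 35 had a median within 0.25 and 25 had no member past 2-fold.

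Ranking by symbol alone gave a similar order, but the families share genes with the lists, so this is not separate support. Among 148 families of at least 8 genes that share the letters before the first digit, 143 had a median within 0.25. The lowest were Ifi (8 genes, -0.72) and Col (17 genes, -0.44), and the highest was Krt (14 genes, 1.21), followed by Cyp of cytochrome P450 enzymes (13 genes, 0.27) and Myo of myosins (12 genes, 0.26). Krt has the size and median of the keratin list, whose 7 members at 5 FPKM or more in both libraries had a median of 0.57. Within Ifi, 3 genes were 2-fold lower, including Ifi44, an antiviral protein, at 76.8 and 27.1 FPKM. Psmb and Parp followed at -0.23 and -0.22, with the interferon-inducible Psmb8 and Parp14 the lowest gene of each, the latter at 18.9 and 8.46 FPKM. The Cyp family held no gene past 2-fold.

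The RANKL-stimulated libraries gave a comparison of the genotypes that shares no library with the unstimulated pair. Of the 128 lower genes, 121 (94.5%) were also lower in both Jmjd6-/- RANKL libraries than in both WT RANKL libraries, while 17.3% of all genes kept were. Of the 91 higher genes, 81 (89.0%) lay above both WT libraries, while 28.8% of all genes kept did. The lower genes had a median log2 ratio of -1.39 unstimulated and -1.18 under RANKL, and the higher genes 1.44 and 1.24. Across the 9285 genes, the log2 ratios correlated at r = 0.795, a description across genes that are not independent replicates. Taking each Jmjd6-/- replicate alone, 124 and 124 of the lower genes lay below both WT libraries, where 21.9% and 21.9% of all genes did, and 87 and 82 of the higher genes lay above both, where 35.5% and 34.6% did.

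By group, all 31 interferon genes were below both WT libraries under RANKL, with a median of -0.91, where 17.3% of all genes kept were below both. Ifi27l2a was at 461 and 775 FPKM in WT and at 150 and 150 FPKM in Jmjd6-/- libraries under RANKL, so each genotype stood higher than without stimulation. Irf7 was at 117 and 162 FPKM in WT and 40.1 and 30.3 FPKM in Jmjd6-/-. Mesenchymal and endothelial medians were -0.85 and -1.67 under RANKL, with 11 of 12 and 4 of 4 genes below both WT libraries, against the same 17.3%. Keratins had a median of 1.04 with 11 of 14 above both, and the 5 epidermal genes 1.95 with 5 of 5 above both. Of all genes kept, 28.8% lay above both. Krt6b was at 1.28 and 4.37 FPKM in WT and 39.8 and 43.0 FPKM in Jmjd6-/-, and Krt16 at 4.68 and 16.1 FPKM in WT and 51.5 and 62.3 FPKM in Jmjd6-/-. The WT replicates of these keratins lay far apart but below both Jmjd6-/- libraries.

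**Figure D3:**
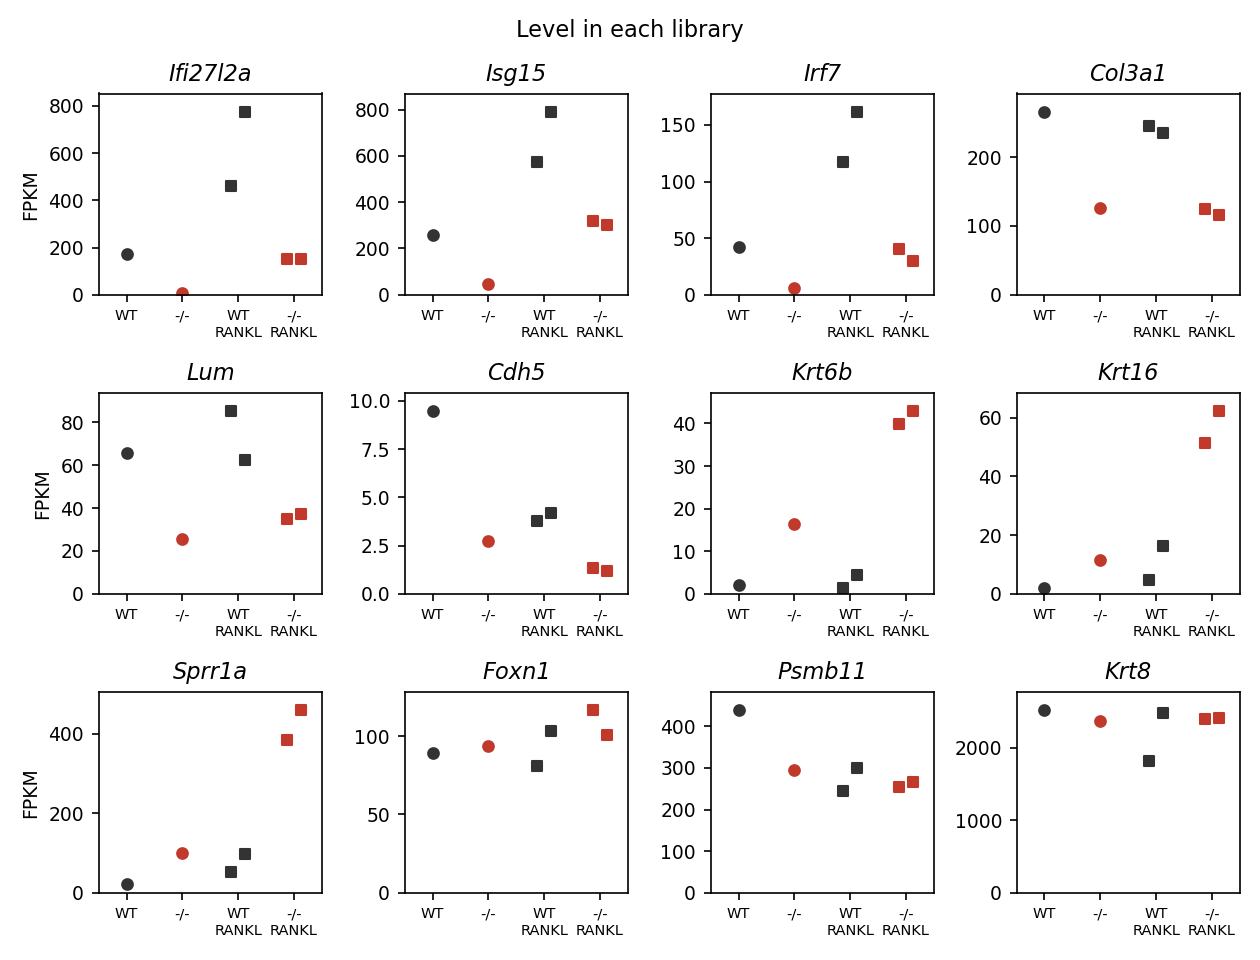
FPKM (y axes from 0, separate for each gene) of 12 genes in each library, WT in black and Jmjd6-/- in red, circles unstimulated (1 library each) and squares with RANKL (2 libraries each). Interferon genes and matrix or vessel genes lie lower and stratified keratins and Sprr1a higher in red in both settings, and Foxn1 and Krt8 overlap.

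In limma, fitted on log2 values over all 6 libraries and adjusted by the Benjamini-Hochberg method over 15894 genes, 115 of the genes kept (1.24%) were lower and 48 (0.517%) higher in Jmjd6-/- stroma under RANKL at an adjusted p threshold of 0.05. Of the 128 lower genes, 69 were called lower, and of the 91 higher genes, 31 were called higher, with 0 called in the other direction. At an unadjusted p threshold of 0.05, the counts were 117 and 72, where 611 lower and 625 higher were called among all 9285 genes kept. By list, 11 of 31 interferon, 4 of 12 mesenchymal and 2 of 4 endothelial genes were called lower, and 4 of 14 keratins and 2 of 5 epidermal genes higher. The adjusted counts rested on the filter and on single libraries. Without the filter on low values, 0 were called by limma in either direction. At an unadjusted p of 0.05, limma called 109 of the lower and 61 of the higher, and 637 and 870 of all kept. Leaving out 1 RANKL library leaves 1 library in its group. Calls among all genes kept then rose or fell together with those of the lower and higher genes. Such counts cannot be read as support and are not given. The labels describe these repeats as technical and the methods as samples, so the p-values measure only the spread between these libraries.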

How the data were processed

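Poly-A RNA of 6 libraries had been prepared with a TruSeq kit and sequenced as pairs. The authors mapped reads to mm10 with TopHat2 2.0.10 and deposited FPKM per gene from Cufflinks 2.1.1, run with a strand setting. FPKM divides fragments by transcript length and library size, so a few abundant genes shift all others. Values were used as deposited, with 0.1 added before log2. The ratio is Jmjd6-/- over WT. Members, gene lists and tests were chosen with earlier results of these data known. Genes named are those with the highest and lowest ratios, up to 4 members of each list by ratio in the direction of its median, defining markers, and others whose values were seen first. The genotype under RANKL was tested with limma 3.58.1 in R 4.3.3 with a mean-variance trend, over genes averaging 0.1 FPKM or more. On simulated data for this comparison, over 15894 genes, the fit found 200 of 200 genes given a log2 change of 2 and called 209. Depth was estimated from FPKM below 0.15 and transcript length less 150 bases in GENCODE genes with 1 transcript. It ranged from 15500000 to 31500000 fragments per library and is approximate. GC content and length were found for 93.6% of genes kept. Of the genes kept, 77 entries join several gene names and were left out of the lists. A treatment label naming RANKL for every sample was set aside, since titles and the stimulation label separate the groups.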

Additional observations from a re-analysis of the deposited data

Results flagged for a closer look

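For 2 genes past 2-fold without stimulation, both RANKL libraries of the genotypes lay apart in the opposite direction. The difference between the settings was not tested. Ifi27l1, a relative of Ifi27l2a, had a log2 ratio of -1.11 unstimulated, at 227 FPKM in WT and 105 FPKM in Jmjd6-/- stroma, and of 0.55 under RANKL, at 126 and 202 FPKM in WT and 237 and 229 FPKM in Jmjd6-/- libraries. Gng13, a G-protein subunit of sensory cells, had a log2 ratio of 2.00 unstimulated, at 1.30 and 5.50 FPKM or about 23 and 49 fragments, and of -0.22 under RANKL, at 10.7 and 10.7 FPKM in WT and 9.21 and 9.05 FPKM in Jmjd6-/- libraries.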

How the results depend on the processing

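Of 48 genes computed again, namely those with the highest and lowest ratios, the leading members of 6 lists, Jmjd6 and its neighbours, the 46 past 2-fold kept their direction and none came within 2-fold. Mfsd11, near equality, changed from -0.01 to 0.00 with another sign under equal totals. The counts of 2-fold differences depended on the filter: 262 genes were lower and 239 higher with at least 1 FPKM in either library, 73 and 52 with at least 10 FPKM, 574 and 527 with no filter, and 55 and 39 with at least 5 FPKM in both libraries, a setting chosen after seeing the data. With at least 1 FPKM, the interferon median was -1.55 and 11 families lay beyond 0.25 in place of 5. With at least 10 FPKM, the collagen median was -0.65, the Col family -0.59 and 3 families lay beyond 0.25, as fewer genes were kept. With 1 added to FPKM, the endothelial median was -1.36. Centring, equal totals, an added constant of 0.01 and removal of GC and length trends moved no count of 2-fold differences by over 1.5 times and no list median by more than the spread between RANKL replicates.

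For genotype under RANKL, the limma calls without a filter were 0 lower and 0 higher, against 637 and 870 at an unadjusted p of 0.05, and without a trend 60 and 30. The cause was not tested. Leaving out 1 RANKL library gave 16 to 1071 lower and 15 to 1950 higher. Same-numbered libraries did not deviate together (r = -0.08 across 12587 genes), so the numbers were not taken as pairs. The replicate block gave 337 lower and 218 higher. Limits are the single library per genotype, the confounded sex of the embryos, the estimated depth and the unstated source of the repeats.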

Other observations

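Some genes past 2-fold belong to no list. Those named here were chosen after their values were seen, and the rest were not grouped. Of the 128 lower genes, 57 belong to a list, as do 33 of the 91 higher genes. Among the others, Esm1, secreted by endothelium, was at 18.6 FPKM in WT and 4.37 FPKM in Jmjd6-/- stroma, Angpt2, which destabilises vessels, at 12.9 and 3.75 FPKM, Pgf, a placental growth factor, at 7.44 and 1.74 FPKM and Cav1, of membrane caveolae, at 5.51 and 1.35 FPKM. Gfra4, a receptor for persephin, was at 11.7 and 1.54 FPKM, and in the RANKL libraries at 14.1 and 10.3 FPKM in WT and 1.03 and 1.09 FPKM in Jmjd6-/-. Without stimulation each of these named genes reached 5 FPKM in WT alone, so a lower value in Jmjd6-/- stroma was fixed by the rule.

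Among the higher genes outside the lists, Defb4, a defensin, was at 6.14 and 27.8 FPKM, Spink5, a protease inhibitor of the epidermis, at 6.58 and 20.3 FPKM, and Ly6d, a surface protein of keratinocytes, at 35.5 and 114 FPKM. Cd36, a fatty acid carrier, was at 10.9 and 23.3 FPKM and Gpnmb, a glycoprotein of lysosomes, at 27.6 and 60.6 FPKM, while the macrophage list had no gene past 2-fold.

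Of 41 imprinted genes in the table, a list also written after the values were seen, 25 were kept, 6 were 2-fold lower and none higher, with a median of -0.19. The lower ones were H19, Dlk1, Dcn, Mest, Igf2 and Meg3, with Mest at 50.8 and 22.1 FPKM and Meg3 at 35.8 and 17.2 FPKM. Dlk1 and Dcn are also on the mesenchyme list.

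On chromosome X, which the rule left out, Agtr2, an angiotensin receptor of fetal mesenchyme, was at 20.4 and 4.63 FPKM and Trex2, an exonuclease of keratinocytes, at 1.08 and 5.89 FPKM. The sex of the embryos bears on X-linked genes and cannot be told apart from genotype.

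For 5 other groups, promoters were searched on both strands for the core of their known element. E-boxes (CACGTG) were in 3 of 9 clock genes with an entry and 12.1% of genes kept, heat shock elements (GAANNTTC) in 10 of 15 and 7.15%, and the cell cycle homology region (TTTGAA) in 14 of 17 mitotic genes and 13.1%. Sterol elements (CACCCCAC) were in 1 of 12 cholesterol genes and 3.96%, and the amino acid response core (TGATGNAA) in 3 of 16 genes and 2.55%.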
